A study of Mus musculus with 4 samples.

Results

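Mir17hg is the host gene of the miR-17-92 cluster, and its E2F1 signal is described here in mouse embryonic stem cells (ESCs). Its members were the peaks of an E2F1 ChIP-seq table within 5 kb of the Mir17hg transcript on mm9. The rule found 1 peak of 4523, chr14:115439810-115441523. The gene was chosen by the signal and rank of this peak, so its level, its rank and its difference between conditions are given as a description, with no test. In ChIP-seq, an antibody, here against E2F1, is used to pull down fragments of fixed chromatin, whose DNA is then sequenced. Each condition, serum and 2i, has 2 biological replicates, 4 samples in all. Serum ESCs were kept in medium with fetal calf serum and LIF, and 2i ESCs in a defined medium with LIF, PD (PD0325901, which blocks MEK and so ERK signaling) and Chiron (CHIR99021, which blocks GSK3). The cells had been adapted to their medium before fixation. Which ESC line was used for ChIP is not given in the sources used here, and no input or control antibody sample and no RNA measurement was analysed here.

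E2F1 is an activating member of the E2F family of transcription factors, which drive genes of DNA replication and S phase entry and are restrained by the RB family of pocket proteins. The Mir17hg primary transcript carries 6 hairpins, from which Drosha, Dgcr8 and Dicer1 release mature miRNAs known for promoting proliferation and survival. E2F factors and MYC have been reported to bind upstream of the cluster, and miRNAs of the cluster to target mRNAs of E2F factors.

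The mature miRNAs of the cluster are shown because they define what the host gene encodes. A miRNA recognises its targets mainly through its seed, bases 2 to 8, which is in capitals. The sequences are those of RefSeq on GRCm38.p6, where 11 mature miRNAs of the cluster were matched, and 6 of the 6 hairpins were identical to the NCBIM37 genome (mm9) at their GENCODE M1 positions. The main arms fall into 4 seed groups. The miR-17 group is miR-17-5p and miR-20a-5p, the miR-18 group miR-18a-5p, the miR-19 group miR-19a-3p and miR-19b-3p, and the miR-92 group miR-92a-3p.
miR-17-5p: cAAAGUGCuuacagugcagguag
miR-20a-5p: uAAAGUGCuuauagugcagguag
miR-18a-5p: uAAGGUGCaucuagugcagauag
miR-19a-3p: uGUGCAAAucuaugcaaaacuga
miR-19b-3p: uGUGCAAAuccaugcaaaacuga
miR-92a-3p: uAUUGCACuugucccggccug
The seed AAAGUGC is shared by 6 mature miRNAs of the 3 related clusters, since miR-106a-5p, miR-20b-5p, miR-106b-5p and miR-93-5p carry it too. The miR-290-295 cluster, a cluster highly expressed in mouse ESCs, has the seed AAGUGCU in 3 of its miRNAs, which shares the letters AAGUGC with it.
miR-106b-5p: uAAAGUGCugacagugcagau
miR-294-3p: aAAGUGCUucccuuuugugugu

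The peak itself is shown next, by the 300 bases at its centre (chr14:115440517-115440816, NCBIM37, plus strand), since its base composition stands at the end of the range of all peaks. The capitals mark its 49 CpG dinucleotides.
centre of the Mir17hg peak: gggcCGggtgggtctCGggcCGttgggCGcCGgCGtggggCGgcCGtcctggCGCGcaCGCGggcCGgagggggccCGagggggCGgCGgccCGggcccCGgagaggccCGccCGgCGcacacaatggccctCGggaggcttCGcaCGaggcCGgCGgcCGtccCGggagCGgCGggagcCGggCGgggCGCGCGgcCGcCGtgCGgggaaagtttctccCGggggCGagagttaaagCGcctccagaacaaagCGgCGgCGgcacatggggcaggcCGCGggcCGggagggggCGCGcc

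On the 1714 bases around the peak centre, GC content was 80.7%, rank 1 of the 4509 peaks on assembled chromosomes measured over windows of the same length. The next highest was 79.9% and the median 60.7%. The Mir17hg window held 279 CpG dinucleotides, the second highest number, against a median of 121. Its ratio of observed to expected CpG was 1.01 (rank 103), against a median of 0.784, so that CpG was as frequent there as its C and G content gives. The 100 GC-richest windows had a median log2 difference (serum minus 2i) of 0.10 and a median mean signal of 161, against 62.7 for all peaks. Across the 4509 peaks, which are not independent replicates, GC content had a Pearson r of 0.33 with the log2 mean signal and of 0.01 with the log2 difference. GC-rich peaks thus held more signal in these libraries, with r between 0.27 and 0.35 in single samples, and the part of GC content in the signal of the Mir17hg peak was not tested.

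The peak was searched for E2F motifs, on both strands and in the letters TTTCCCGC, TTTCGCGC, TTTGCCGC and TTTGGCGC. The 401 bases around its centre held 0 matches, and so did the whole peak. Of the 4509 peaks, 5.12% held at least 1 match in 401 bases and 15.9% in 1714 bases, so that most peaks had none. Without the first T of each motif, a choice made after seeing the data (that is TTCCCGC, then TTCGCGC, then TTGCCGC and then TTGGCGC), the 401 bases again held 0 matches, against 29.3% of peaks with at least 1. The whole peak held 3, and 8.54% of windows of 1714 bases held as many. The E-box CACGTG, the MYC site, was absent from both windows, while 9.96% of peaks held it in 401 bases and 32.0% in 1714. A match is a description of letters, and its absence says nothing of E2F1 or MYC at this place.
The 3 matches of 7 letters are shown in capitals on the plus strand, since they are the only matches found in the peak. Letters that differ from a motif at another place were not searched. The match in the sequence chr14:115439809-115439855 is TTCCCGC on the minus strand, and those in chr14:115440223-115440279 are TTCGCGC on the plus strand.
match 1: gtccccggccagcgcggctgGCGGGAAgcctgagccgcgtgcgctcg
matches 2 and 3: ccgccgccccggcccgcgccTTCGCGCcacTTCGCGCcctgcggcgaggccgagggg

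The Mir17hg peak lies upstream of the gene. In GENCODE M1 on NCBIM37, the longer transcript Mir17hg-001 runs on the plus strand from 115442101 to 115445949 of chromosome 14 in 2 exons. The peak ends 578 bases before its start and overlaps no annotated exon. Mir17, the hairpin nearest to the peak, begins 1370 bases after the peak end, in the second exon. Mir18, Mir19a, Mir20a, Mir19b-1 and Mir92-1 follow in this order, and the last begins 2126 bases after the peak end. The 3 matches of 7 letters begin 2272, 1858 and 1848 bases before the annotated start, in the upstream part of the peak. Annotated starts of primary miRNA transcripts differ between annotations. In RefSeq on GRCm38.p6 the start of Mir17hg lies after the start of 5 of the 6 hairpins, so distances are given to the GENCODE start only. The next gene downstream, Gpc5, a heparan sulfate proteoglycan of the cell surface, starts 49914 bases after the peak end.

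**Figure D1:**
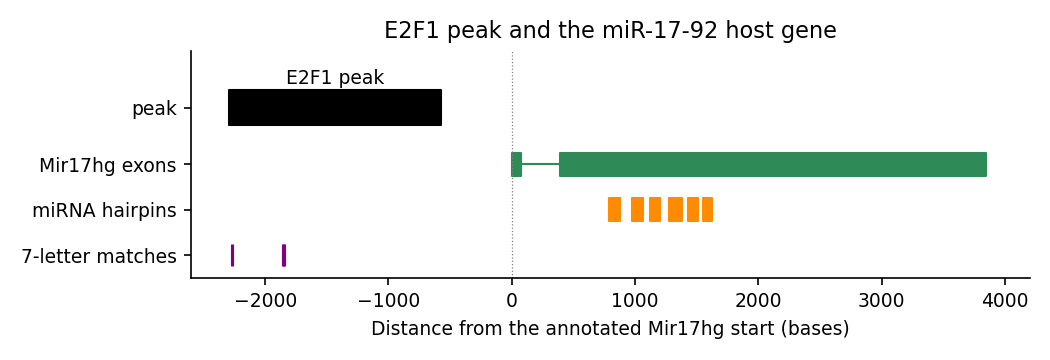
The E2F1 peak, the exons of Mir17hg-001, the 6 miRNA hairpins and the matches of 7 letters, drawn to scale by their distance in bases from the annotated Mir17hg start (dotted line, plus strand to the right). The peak ends 578 bases before the start, and the matches lie in its upstream part.

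The peak stood alone on its stretch of chromosome 14, which holds 149 peaks. The peak before it lies 8733133 bases away, and its nearest annotated gene is a U4 small nuclear RNA. Its normalized counts were 47.0 and 29.5 in serum and 43.1 and 18.8 in 2i. The peak after it lies 3094715 bases away at Gpr180, which encodes a membrane receptor protein. Its normalized counts were 95.8 and 61.0 in serum and 53.7 and 36.5 in 2i. With limma on log2(normalized count + 1), neither was called. A peak counts as called where its log2 fold change is past 1, up or down, and p before adjustment is under 0.05, and 10.3% of all peaks were called.

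The values are normalized read counts, which are the reads over a peak divided by 1 size factor per sample. At the Mir17hg peak, serum replicate 1 had 3087 and serum replicate 2 had 2100. The 2i values were 1072 in replicate 1 and 904 in replicate 2. Both serum samples lay above both 2i samples. Such an order of the 4 samples was found at 24.9% of all peaks. The serum mean was 2594 ± 698 (SD, n = 2). The 2i mean was 988 ± 118 (SD, n = 2), so the fold of the means was 2.63. On the log2 scale the difference was 1.37, with a pooled SD of 0.30 between replicates. The 4 ratios of a serum to a 2i sample were 2.88, 3.41, 1.96 and 2.32, while serum replicate 1 was 1.47 times serum replicate 2 and 2i replicate 1 was 1.18 times 2i replicate 2. In bulk ChIP-seq, a change in the share of cells with E2F1 at this place and a change in E2F1 per cell cannot be told apart.

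The reads behind these values were worked out from the step by which the values of a sample rise. By this reckoning the peak held 1772 and 2203 reads in serum replicates 1 and 2, and 1914 and 867 in 2i replicates 1 and 2. As a share of all reads in peaks of a sample, this was 0.712% (95% Clopper-Pearson interval 0.679% to 0.746%) in serum replicate 1 and 0.489% (0.469% to 0.510%) in serum replicate 2. The share was 0.269% (0.257% to 0.282%) in 2i replicate 1 and 0.219% (0.205% to 0.234%) in 2i replicate 2. These intervals cover counting error only and take reads as independent, which reads of paired ends are not. Serum replicate 1, the library with the highest share, was the shallowest, with 248878 reads in peaks against 710519 in 2i replicate 1, the deepest. In serum replicate 1 the peak held 50.6 times the signal of the median peak, and in serum replicate 2 it held 33.9 times. In 2i replicates 1 and 2 it held 17.2 and 14.9 times.

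The peak ranked 1 of 4523 in serum replicate 1 and 2 in serum replicate 2. It ranked 1 in 2i replicate 1 and 7 in 2i replicate 2. By the mean of the 4 samples it ranked 2, by the serum mean 1 and by the 2i mean 3. A high rank was thus found in each of the 4 samples, although the level differed between conditions. The Grb10 peak alone was above it in serum replicate 2. In 2i replicate 2, the peaks of Grb10, Rev1, Mllt6, Dnajb14, Klf4 and Anp32b were above it. The absolute difference between the conditions, 1606 normalized counts, was the largest of all peaks, and the next was 1130. On the log2 scale, 104 peaks (2.30%) had a larger difference in favor of serum. Both standings are those of the values as deposited, and the log2 difference at Mir17hg was 0.67 after cyclic loess normalization. The peak is also long, with 1713 bases against a median of 480 and a range of 187 to 1946, which is the fourth longest. Per kb of length, it ranked 3 and 7 in serum replicates 1 and 2, 19 and 58 in 2i replicates 1 and 2, and 8 by the mean. Long peaks were strong in general, and the 100 peaks of 1000 bases or more had a median mean signal of 274. The highest among the others was 1060, against 1791 at Mir17hg.

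The peaks next to it in rank show how it stands among the strongest. Grb10, an imprinted gene for an adaptor protein of insulin signaling, had the highest mean. Its normalized counts were 1101 and 3624 in serum and 858 and 4706 in 2i, so that its replicates differed far more than its conditions. Dnajb14, which encodes a J-domain co-chaperone, had 1700 and 997 in serum and 864 and 990 in 2i. Anp32b, for an acidic histone-binding nuclear protein, had 1340 and 1207 in serum and 789 and 905 in 2i. Rev1, a translesion DNA polymerase, had 542 and 828 in serum and 471 and 2086 in 2i. Phc1, a Polycomb subunit, had 903 and 2020 in serum and 357 and 306 in 2i. The log2 difference was 1.37 at Mir17hg, -0.01 at Grb10, 0.49 at Dnajb14, 0.59 at Anp32b, -0.56 at Rev1 and 2.03 at Phc1. Of these 5 other peaks Phc1 alone was called (SE 0.38).

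**Figure D2:**
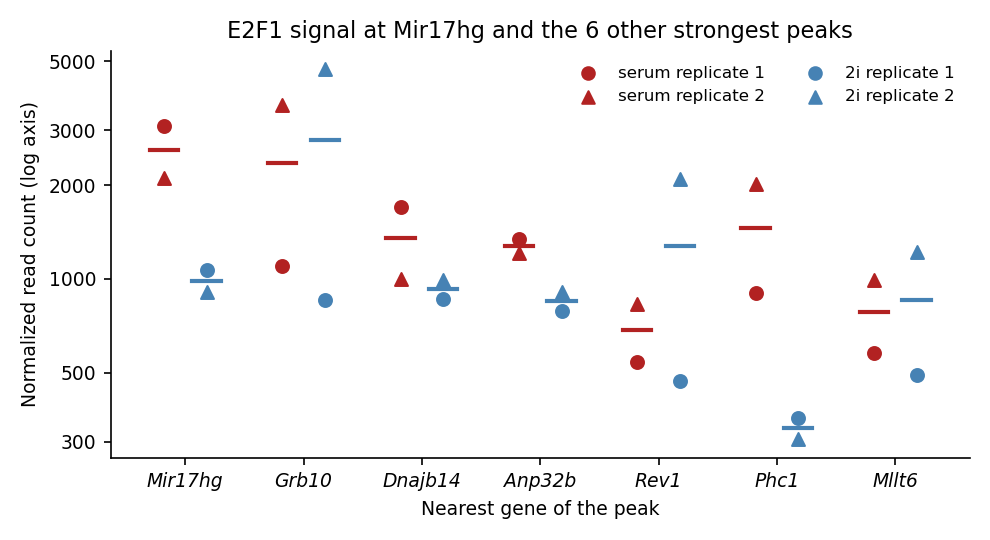
Normalized read count (log axis) of the Mir17hg peak and the 6 other peaks with the highest mean, per sample, with circles for replicate 1, triangles for replicate 2 and bars for the mean of the 2 replicates of a condition. At Mir17hg both serum samples (2100 and 3087) lie above both 2i samples (904 and 1072), while at Grb10, Rev1 and Mllt6 replicate 2 lies above replicate 1 in both conditions.

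A ratio within a sample does not depend on its scaling. The Mir17hg peak was 1.82 and 2.11 times the Dnajb14 peak in serum, and 1.24 and 0.914 times in 2i. It was 2.30 and 1.74 times the Anp32b peak in serum, and 1.36 and 0.999 times in 2i. Against Mllt6 the ratios were 5.35 and 2.12 in serum and 2.18 and 0.741 in 2i, so that they overlapped, as they did against Phc1. Against Grb10 the ratios were 2.80 and 0.579 in serum and 1.25 and 0.192 in 2i, following the replicates of Grb10. Such a ratio shows unequal change, not which of the peaks changed.

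The difference at Mir17hg has to be read beside that of strong peaks in general. The median log2 difference was -0.03 over all 4523 peaks, 0.18 over the 500 strongest, 0.33 over the 100 strongest, 0.49 over the 50 strongest and 0.53 over the 10 strongest. Of the 50 strongest peaks, 42 had a higher value in serum. At Mir17hg the log2 difference exceeded the median of the 10 strongest and that of the 50 strongest, and 4 of the 50 strongest exceeded it. Cyclic loess normalization, which removes a difference between samples that follows signal, brought the median of the 10 strongest to -0.04 and the difference at Mir17hg to 0.67. Rescaling the samples to the same total over the 100 strongest other peaks, an alternative chosen after seeing the data, gave 1.005 at Mir17hg. The difference at Mir17hg stayed above 0 under each scaling tried, cyclic loess included, and its size depended on how strong peaks were scaled. The other settings, another pseudocount or a replicate left out, could not bring it to 0 or below. Every serum value there already exceeded every value of the other condition, so these settings say nothing about its sign. Which scaling fits E2F1 in these cells was not tested.

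**Figure D3:**
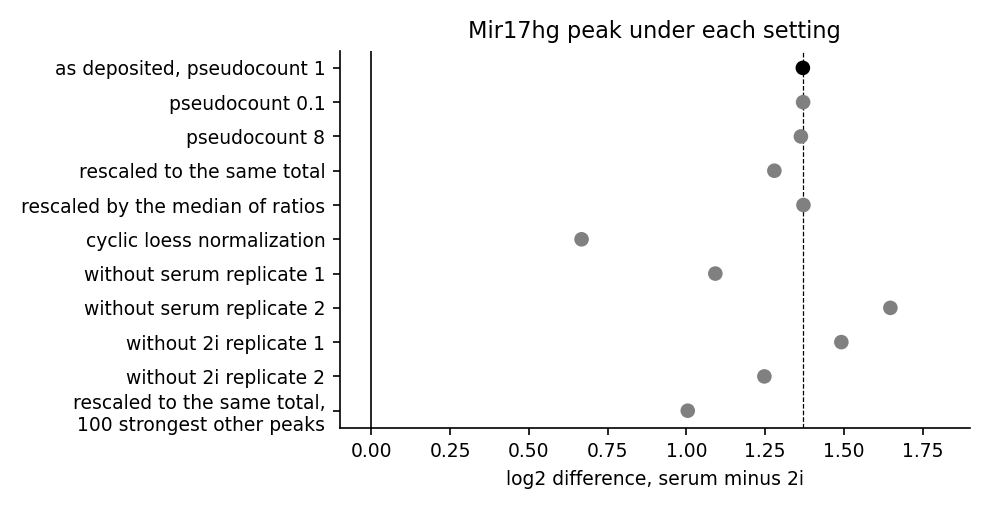
Log2 difference (serum minus 2i) at the Mir17hg peak under each setting, with the values as deposited in black and the alternatives in grey. The solid line marks 0 and the dashed line the value of 1.37. The values run from 0.67 after cyclic loess to 1.65 without serum replicate 2.

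Over all peaks 466 were called, 218 with more signal in serum (4.82%) and 248 with more in 2i (5.48%). Rescaled to the same total, these calls were 178 and 313, and after cyclic loess 232 and 166. With adjusted p under 0.05 as well, 66 (1.46%) were called, and 0, 33, 17 and 11 without serum replicate 1, serum replicate 2, 2i replicate 1 and 2i replicate 2. Mir17hg is among the 50 strongest peaks. Of the 49 others there, 9 were called, each with more signal in serum as the values were deposited. With limma, 2 of the 9 also had an adjusted p under 0.05, Phc1 (0.0308) and Enah (0.0347). Sox2, the pluripotency factor, had a log2 difference of 1.11 (SE 0.33, adjusted p = 0.126 with limma). Mcl1, a survival factor of the BCL2 family, had 1.18 (SE 0.29, adjusted p = 0.0761 with limma). Spry2, a feedback inhibitor of receptor tyrosine kinase to ERK signaling, had 1.43 (SE 0.33, adjusted p = 0.0670 with limma). Zfp532, Klf3 and Fam169a are among the others called. The p-values rest on the spread between 2 biological replicates per condition and on a variance that limma borrows from peaks of like signal. With 2 replicates per condition, an exact permutation test at 1 peak (two-sided) cannot give a p below 0.333.

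The peaks most like Mir17hg were sought among the 500 strongest, by the Euclidean distance between the 4 log2 values of each peak after centring on its own mean. The 5 nearest were at Tpt1 (distance 0.20), Slc7a5 (0.24), Enc1 (0.26), Tmem189 (0.29) and Rbmxl2 (0.30), against a median of 1.33 over the 499 other peaks. Tpt1, for a translationally controlled growth protein, had 568 and 374 in serum and 181 and 186 in 2i. Slc7a5, a transporter of large neutral amino acids, had 646 and 478 in serum and 194 and 193 in 2i. Enc1, for an actin-binding protein of the kelch family, had 301 and 255 in serum and 104 and 91.8 in 2i. Tmem189, for an enzyme of plasmalogen synthesis, had 335 and 291 in serum and 146 and 120 in 2i, and Rbmxl2, for an RNA-binding protein, had 331 and 280 in serum and 109 and 107 in 2i. In each of the 5, as at Mir17hg, serum replicate 1 was the highest sample. These peaks were chosen for their likeness over 4 samples, and their differences are a description.

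**Figure D4:**
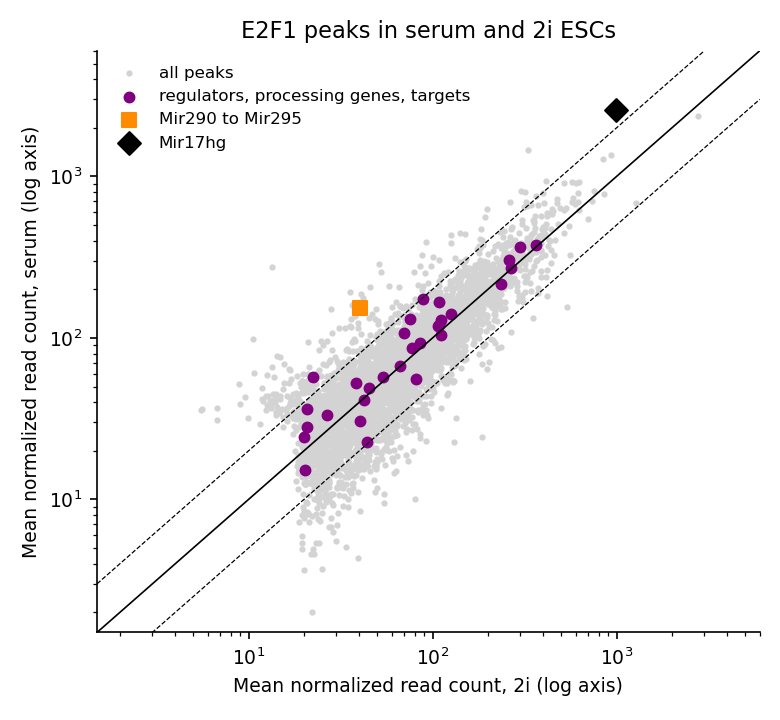
Mean normalized read count of each peak in serum against 2i (both log axes, n = 2 per condition), with the line of equality and dashed lines at a fold of 2 between the means. Mir17hg lies above the upper dashed line at 2594 against 988, and 1 of the 30 peaks at regulators, processing genes and reported targets was called, against 10.3% of all peaks.

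The Mir17hg peak was also set beside the other miRNA genes. Within 5 kb of another annotated miRNA gene or miRNA host gene lay 89 peaks. The highest mean among them was 819, at a peak that lies at Mllt6 near the clone-named miRNA AL596123.1, and the mean of the Mir17hg peak, 1791, was 2.19 times that. Among the 34 peaks near a miRNA with a Mir name, the highest was Mirlet7i, with 436 and 588 in serum and 307 and 404 in 2i, and the Mir17hg mean was 4.13 times its mean. By the serum mean, the highest of the 89 had 928, against 2594 at Mir17hg. By the 2i mean the gap was smaller, with 855 at the Mllt6 peak against 988 at Mir17hg. In 2i replicate 2 the Mllt6 peak was above the Mir17hg peak, with 1220 against 904, and in the other 3 samples none of the 89 was above it. Of the 89 peaks, 6 (6.74%) were called, 4 with more signal in serum and 2 with more in 2i, against 10.3% of all peaks. Their median log2 difference was -0.02, close to the -0.03 of all peaks. The 5 called peaks other than that of the miR-290-295 cluster lie near miRNAs known only by a clone name. Among them, a peak at Stmn1 was higher in serum (log2 difference 2.17, SE 0.45), and 1 at Arih2 was higher in 2i (-2.01, SE 0.39).

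The called peak near named miRNAs lies at the miR-290-295 cluster, whose seed resembles that of miR-17-5p. It is found at chr7:3221506-3221972, 664 bases after the end of the Mir295 hairpin, the last of the cluster. Its normalized counts were 193 and 112 in serum and 26.9 and 54.2 in 2i, from 111, 117, 48 and 52 reads. Both serum samples lay above both 2i samples. The log2 difference was 1.91 (SE 0.39, adjusted p = 0.0385 with limma). Without 1 library in turn the peak stayed called by fold and unadjusted p, but the adjusted p was 0.259 without serum replicate 1, 0.0633 without serum replicate 2, 0.165 without 2i replicate 1 and 0.0573 without 2i replicate 2. Its mean of 96.5 is far below that of Mir17hg. Its GC content was 44.2%, against 80.7% at Mir17hg. Its 466 bases held 0 E2F matches of 7 or 8 letters and 1 E-box. The 1713 bases of the Mir17hg peak held 3 matches of 7 letters, 0 of 8 letters and 0 E-boxes.

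**Figure D5:**
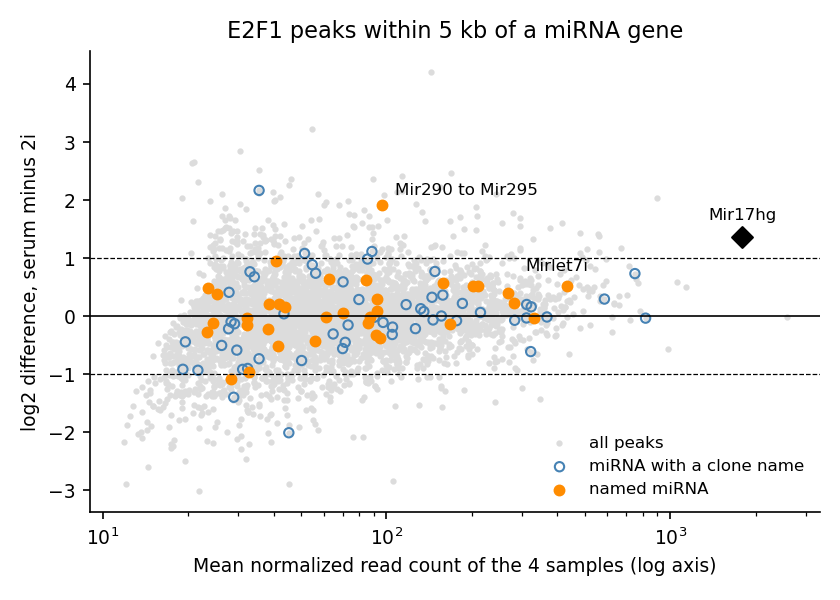
Log2 difference (serum minus 2i) against the mean normalized read count (log axis) for peaks within 5 kb of a miRNA gene, filled where the miRNA has a Mir name and open where it has a clone name, over all peaks in grey. Dashed lines mark log2 differences of 1 and -1. Mir17hg (diamond) has the highest mean among the peaks at miRNA genes, 1791, and the peak of the Mir290 to Mir295 cluster lies at a log2 difference of 1.91.

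The paralogous clusters of miR-17-92 had no E2F1 peak. They are miR-106b-25, which lies in Mcm7, a helicase subunit of DNA replication, and miR-106a-363. None of their 10 genes had a peak within 1 kb of a transcription start, or within 5 kb. A peak is in the table only where the replicates of serum or those of 2i share it, so weaker signal at the other clusters was not measured.

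The regulators reported for the cluster were E2F factors, MYC factors, Ccnd1 and Trp53. Peaks were found at E2f1, E2f2 and E2f3, and not at Myc, Mycn, Ccnd1 and Trp53. The 3 E2F genes had far less signal than Mir17hg. E2f1 had 270 and 275 in serum and 226 and 309 in 2i, and its log2 difference was 0.04 (SE 0.26). E2f3 had 120 and 118 in serum and 101 and 112 in 2i, a log2 difference of 0.16 (SE 0.25). E2f2 had 61.0 and 53.4 in serum and 25.2 and 19.8 in 2i, and was called higher in serum (1.31, SE 0.39), with an adjusted p of 0.121 in limma. Its peak rests on 35, 56, 45 and 19 reads.

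The machinery that turns the Mir17hg transcript into mature miRNAs had peaks at 8 of 13 genes. By limma, 0 of the 8 peaks were called, against 10.3% of all peaks, and 0 had an unadjusted p under 0.05, against 17.8%. With 8 peaks, 0 calls lie near the share of all peaks. Ran, the GTPase of nuclear transport that serves miRNA export, had the highest mean, with 399 and 349 in serum and 353 and 374 in 2i. Dgcr8, the RNA-binding partner of Drosha, followed with 340 and 265 in serum and 298 and 222 in 2i. Dicer1 and Xpo5, the exporter of hairpins, had log2 differences of 0.57 (SE 0.32) and 0.28 (SE 0.45). Eif2c2 and Eif2c1, which encode Argonaute proteins, had -0.07 (SE 0.28) and -0.32 (SE 0.44). Of the 8 peaks, 6 had a log2 difference above 0 and 2 below, with a median of 0.25. Over all peaks 47.8% lay above 0, with a median of -0.03, and over the 500 strongest 67.6%, with a median of 0.18.

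Among 34 genes reported as targets of the cluster, 21 had peaks, with 22 peaks in all. E2f2 was the called peak among the 22, against 10.3% called of all peaks. The median log2 difference was 0.14, with 17 peaks above 0 and 5 below. Of all peaks, 47.8% lay above 0, and of the 500 strongest 67.6%. Smad2, a mediator of TGF-beta signaling, had the highest mean, with 329 and 402 in serum and 252 and 344 in 2i. Rb1, the pocket protein that restrains E2F factors, had 172 and 176 in serum and 77.3 and 101 in 2i. Its log2 difference of 0.97 (SE 0.26) lay just under the fold that a call needs, and its adjusted p was 0.0963 with limma. Bcl2l11, the proapoptotic BIM, had 61.0 and 54.3 in serum and 63.3 and 43.8 in 2i.

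Over the 30 peaks of these lists 1 was called, against 10.3% of all peaks, and their median log2 difference was 0.14, against -0.03. By limma, 0 of the 30 had an adjusted p under 0.05 with the fold, while 4 had an unadjusted p under 0.05 (E2f2, Rb1 and Zbtb7a among them), against 17.8% of all peaks. The number of calls was 2 without serum replicate 1 (Socs1 added), without serum replicate 2 (Itga5 added) or without 2i replicate 1 (Ddx5 added), and 3 without 2i replicate 2 (Socs1 and Rb1 added). The log2 difference of 1.37 at Mir17hg was above that of each of the 30 peaks, but E2f2 lay above it after cyclic loess, with 1.35 against 0.67, and without serum replicate 1, with 1.22 against 1.09. After cyclic loess Rb1, with 0.91, lay above it too, among others.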

How the data were processed

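E2F1 ChIP-seq was analysed in 2 serum and 2 2i ESC samples. Per the submitters' processing notes and the methods of the study, the authors used BWA for alignment to mm9 and picard for duplicates, dropped blacklisted regions, called peaks with MACS2 per sample, intersected replicates, merged the conditions and counted reads with bedtools. Tool versions are not given in the sources used here. The authors deposited a normalized count signal per peak and sample. Of 18092 values, 99.95% were whole multiples of 1 step per sample (within 0.02 reads), which gave the reads in peaks, 248878 to 710519 per sample. The 9 others were exactly 2 and kept as deposited. Whether peak starts count from 0 or 1 is not stated.

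Peaks were tested with limma (version 3.58.1; R version 4.3.3), taking log2(normalized count + 1) and eBayes with a trend, and Benjamini-Hochberg adjustment over 4523 peaks, without a filter or block. Fold changes are on that scale. The test was tried on simulated data. Python 3.11.15 served for tables and figures, with pandas 2.3.3, scipy 1.17.1 and matplotlib 3.10.9. Genes and windows came from GENCODE M1 and NCBIM37, and the 14 peaks off assembled chromosomes were left out of windows. Members and lists were chosen with earlier results of these data known. Named were the Mir17hg peak, its neighbours, the 5 peaks next in rank, the 5 most alike, and the called or strongest peaks at 4 gene lists and at miRNA genes. Genes named outside this rule, among them Sox2, Mcl1, Spry2, Rb1, Bcl2l11, Dicer1, Xpo5, Eif2c1 and Eif2c2, were chosen after their values were seen, and some named results are not reported here. Alternatives were pseudocounts of 0.1 and 8, other scalings, a minimum mean of 50, no trend, a replicate block and leaving out each replicate.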

Additional observations from a re-analysis of the deposited data

How the results depend on the processing

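At the Mir17hg peak the log2 difference of 1.37 became 0.67 after cyclic loess and 1.005 when rescaled to the 100 strongest other peaks, and ran from 1.09 to 1.65 with 1 replicate left out. Its rank by the mean, 2, became 8 per kb of length. Its E2F matches rose from 0 to 3 only with motifs of 7 letters over the whole peak. With a minimum mean of 50, the 466 called peaks became 188, and the calls in the gene lists fell to 0, because E2f2 was no longer tested. The calls in the lists ran from 2 to 3 with 1 replicate left out. The 66 calls with adjusted p became 0 by limma without a trend, where 769 peaks had an unadjusted p under 0.05 and 479 were called, and ran from 0 to 33 with 1 replicate left out. The count of 0 was without serum replicate 1, where 566 had an unadjusted p under 0.05. Where a condition keeps 1 sample, limma assumes that it varies like the other condition. The cause of these changes was not tested.

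With the replicate number as a replicate block, 504 peaks were called, 462 of them shared with the fit without it, and 271 of them had an adjusted p under 0.05, E2f2 with 0.0491 included. The deviations of same-numbered samples correlated at 0.05 across peaks. With 2 pairs, this cannot tell whether same-numbered samples share a batch. Tests on reads were planned and not run, because a check of the values did not accept 3 of the 4 samples as whole reads when the smallest value was taken as 1 read. The reads given here rest on the step between values instead. The median peak of serum replicate 1, the shallowest library, held 35 reads, and the E2f2 peak held 19 to 56 reads per sample. The part of depth in the number of calls was not tested.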
